A study of Mus musculus with 10 samples.

Results

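The genes described here are 10 that carry fatty acids into cells or bind them there: the receptors Cd36 and Scarb1, the membrane binding protein gene Got2, the transporters Slc27a1, Slc27a2, Slc27a3 and Slc27a4, and the binding proteins Fabp1, Fabp2 and Fabp4. They were chosen by name, and each was found as 1 of the 55487 gene identifiers in both liver count tables. All 10 passed the filter on low counts in both.

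Long-chain fatty acids reach liver bound to albumin or inside lipoproteins. CD36 is a membrane glycoprotein that binds long-chain fatty acids and oxidized lipoproteins and helps fatty acids enter the cell. It is present on macrophages, endothelial cells, platelets and adipocytes as well as on hepatocytes, where its level is low in lean animals and higher in fatty liver. The fatty acid transport proteins of the Slc27 family couple uptake to activation with coenzyme A, and the fatty acid binding proteins carry fatty acids through the cytosol. After partial hepatectomy (PHx), the surgical removal of most of the liver, the remnant takes up fatty acids from adipose tissue and stores lipid for a time while its cells divide.

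The values are read counts from bulk RNA sequencing of whole regenerating liver of C57BL/6J mice, labelled male and 8 weeks old. In the diet experiment mice were fed a high-fat diet (HFD) or regular chow for 7 days, then underwent PHx, and liver was taken after 40 h, with 3 libraries per group. The inhibitor experiment gave 1 dose level of SSO, 40 mg/kg, or the solvent alone (vehicle) on the day before PHx; its livers were collected 48 h after surgery and gave 4 libraries in either group, although the labels list 8 mice in each. The labels do not expand SSO; in CD36 research the letters usually mean sulfosuccinimidyl oleate, a compound that reacts with CD36 and blocks fatty acid uptake. All animals were operated on and none of the libraries used here is from unoperated liver, so the values show the diet and the compound against their controls and not the course of regeneration.

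Library totals were 31.9 to 39.9 M counts for the diet libraries and 25.2 to 30.4 M for the inhibitor libraries. The 5 hepatocyte markers were all detected. The experiments stand apart in a sex-linked transcript: Xist was at 698 to 1772 CPM (counts-per-million, on TMM-scaled library sizes) in the inhibitor libraries and 0 to 0.620 CPM in the diet libraries. Ddx3y, on the Y chromosome, was at 0 and at 55.0 to 76.3 CPM respectively, so the inhibitor libraries go against their label of male mice and no level is compared between the experiments. Within the inhibitor experiment the vehicle libraries were unlike each other. Vehicle 1 and 3 held macrophage and monocyte markers at a summed 649.6 and 655.3 CPM, against 125.6 in vehicle 2, 161.7 in vehicle 4 and 169.3 to 300.7 in the SSO libraries. Mitochondrial transcripts took 4.99% to 22.5% of counts in vehicle libraries and 15.2% to 17.6% in SSO libraries.

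A pair of upstream sequences is shown because Cd36 is the only gene of the 10 called in either comparison and Fabp1 the one at the highest level per length. They come from the RefSeq promoter table on GRCm38.p6, in which 8 of the 10 genes had an entry, and are written 5′ to 3′ on the strand of the gene, with positions counted back from the RefSeq start of transcription. GENCODE M21 gives Cd36 6 transcripts with several start sites, of which the window covers 1, and these counts per gene do not show which was used. Capitals mark a 16-base stretch that occurs back to back, at positions -111 and -95, in Cd36, and in Fabp1 a match at -67, read on the opposite strand, to 2 copies of AGGNCA with 1 base between them, the kind of direct repeat bound by PPARA with its partner RXR. The Fabp1 sequence stops at -53, where GENCODE M21 begins the first exon.
Cd36, upstream 250 bases, chr5:17835897-17836146, minus strand: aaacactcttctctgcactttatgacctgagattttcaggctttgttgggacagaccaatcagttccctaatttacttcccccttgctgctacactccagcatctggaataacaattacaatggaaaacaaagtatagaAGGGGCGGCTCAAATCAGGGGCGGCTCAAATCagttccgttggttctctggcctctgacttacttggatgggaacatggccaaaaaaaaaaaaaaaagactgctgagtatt
Fabp1, 198 bases ending at -53, chr6:71199629-71199826, plus strand: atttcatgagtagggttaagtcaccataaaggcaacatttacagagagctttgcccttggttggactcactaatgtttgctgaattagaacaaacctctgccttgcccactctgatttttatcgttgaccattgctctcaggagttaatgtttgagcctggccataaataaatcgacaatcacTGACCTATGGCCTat
Each copy of the Cd36 repeat holds a GC box, GGGCGG, at -109 and -93. Of 32851 promoter windows in the table, searched on both strands, 35.7% hold that box at least once, and Slc27a2, Slc27a3, Slc27a4 and Slc27a1 hold it too. The direct repeat is in 0.381% of windows, and among the windows of the 8 genes only that of Fabp1 matched it. The Cd36 window has no match to it, which says only that those letters are absent from that stretch. These matches are descriptions of sequence and were not tied to the changes in counts.

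SSO was followed by a lower Cd36 level, and Cd36 was the only one of the 10 genes called in that comparison. Cd36 (ENSMUSG00000002944, chr5:17781690-17888801, minus strand) was at 102, 72.4, 77.9 and 96.3 CPM in the 4 vehicle libraries and at 35.5, 32.2, 41.1 and 34.5 CPM in the 4 SSO libraries. Every SSO library lay below every vehicle library. The means were 87.0 ± 14.0 CPM (SD, n = 4) and 35.8 ± 3.81 CPM (SD, n = 4), a 2.43-fold lower level under SSO. The log2 fold change was -1.28 ± 0.16 (SE), with a 95% interval of -1.64 to -0.92 and an adjusted p of 0.0196 by edgeR's quasi-likelihood test with Benjamini-Hochberg adjustment over 15788 genes. By p it ranked 6 among them. These values rest on 1596 to 3073 Cd36 counts in vehicle libraries and 884 to 1154 in SSO libraries, so counting error is small beside the spread between libraries.

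For all genes tested, 71 were called, which is 0.45%, and 21 of these were lower under SSO, which is 0.133%. Of the 10 genes here 1 was called, lower, and the median log2 fold change of the 10 was -0.28 against -0.04 over all genes. Unadjusted p fell under 0.05 for 4 of the 10, of which 1 was higher and 3 lower, while 20.4% of all genes did so. The groups did not overlap for Cd36, lower, and Slc27a3, higher, and the background for such separation was 11.8% of genes.

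**Figure D1:**
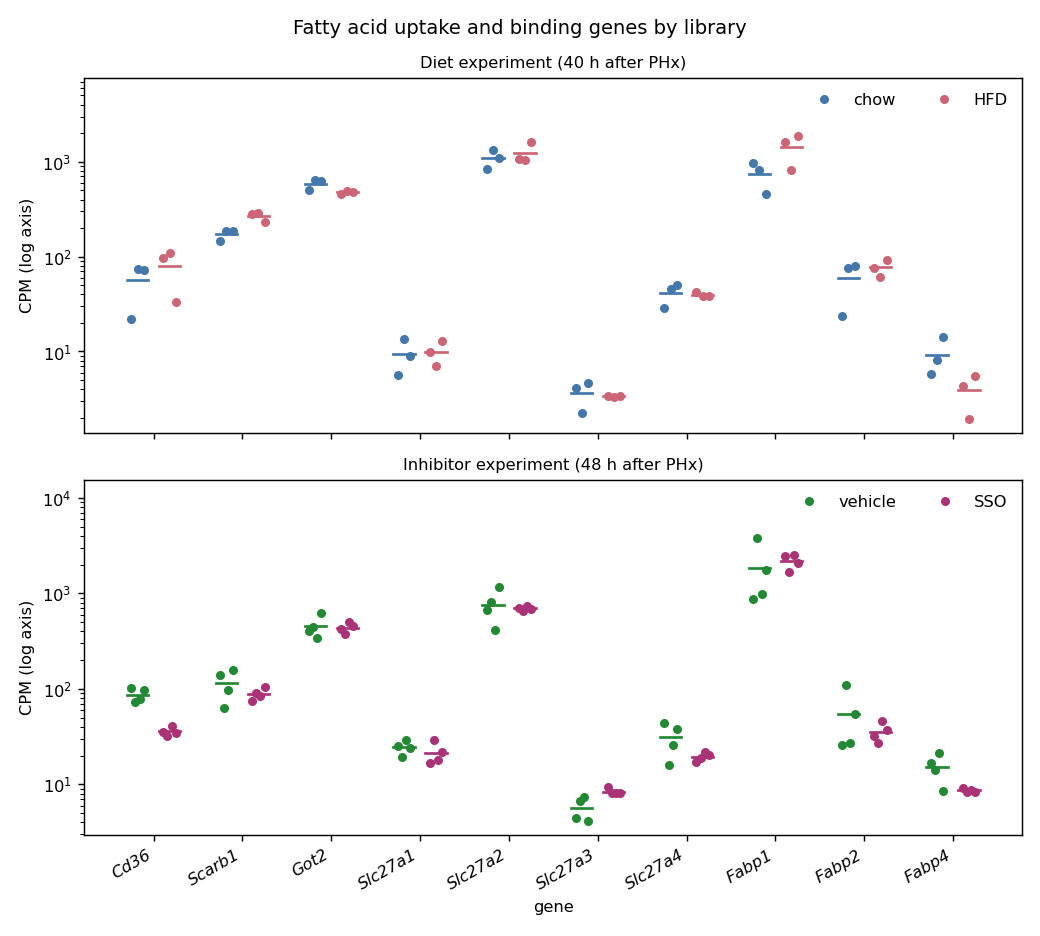
Level of each of the 10 genes in every library, in CPM on a log axis, for the diet experiment (top) and the inhibitor experiment (bottom). Points are libraries and bars are group means; in the lower panel the Cd36 points of the SSO group, 32.2 to 41.1 CPM, lie below all vehicle points, 72.4 to 102 CPM, while for most other genes the groups overlap.

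The call for Cd36 depended on single libraries although its size did not. When each of the 8 libraries was left out in turn, the log2 fold change stayed between -1.36 and -1.20, its unadjusted p was 9.64e-05 or smaller, and its adjusted p by edgeR ranged from 0.000993 to 0.103. Cd36 was called in 3 of those fits, without vehicle 2, 3 or 4. Its adjusted p was 0.0654 without vehicle 1 and 0.0724, 0.0965, 0.0791 and 0.103 without SSO 1, 2, 3 and 4, and in these 5 fits edgeR called 0 genes in the whole table. With all 8 libraries Cd36 was also called lower by DESeq2 and limma-voom, with adjusted p of 3.48e-08 and 0.0126. DESeq2 called 3.97% of all genes lower. With library size scaling and with no low-count filter edgeR's adjusted p for Cd36 was 0.02875 and 0.00104.

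Cd36 is also a gene of macrophages, endothelial cells, platelets and adipocytes, so the markers of those cells were read in the same libraries. In bulk liver, fewer cells of a type and less RNA per cell cannot be told apart. The macrophage and monocyte markers (10 genes) summed to 649.6, 125.6, 655.3 and 161.7 CPM in vehicle 1, 2, 3 and 4. Cd36 was at 102, 72.4, 77.9 and 96.3 CPM there. In SSO libraries the markers summed to 169.3 to 300.7 CPM, with Cd36 at 32.2 to 41.1 CPM. Of the 10 markers only Lyz2 had groups apart, at 23.0 to 189 CPM in vehicle and 0.037 to 11.3 CPM in SSO libraries. With vehicle 1 and 3 left out, the Cd36 log2 fold change was -1.24, with an adjusted p of 0.0113 by edgeR, in a fit that called 0.0779% of genes lower. That fit kept only vehicle 2 and 4 beside the SSO libraries and does not test the part of any cell type. Endothelial markers (8 genes) summed to 88.2 to 213 CPM in vehicle and 110 to 194 CPM in SSO libraries, and platelet markers (4 genes) to 6.14 to 10.8 and 10.2 to 12.5 CPM. Of the platelet markers only Itga2b had groups apart, at 4.03 to 5.18 CPM in vehicle and 8.90 to 11.8 CPM in SSO libraries. The 6 adipocyte markers summed to 5.02 to 14.4 CPM in vehicle and 8.91 to 11.7 CPM in SSO libraries, nearly all of it Plin4, with Adipoq, Lep and Retn at 0 in all 8 libraries. The part of these cells in the Cd36 difference was not tested. The mitochondrial share was 4.99%, 22.5%, 11.5% and 9.15% in vehicle 1, 2, 3 and 4. In SSO libraries this share was 15.2% to 17.6%, above vehicle 1, 3 and 4 and below vehicle 2. Its part in the Cd36 difference was not tested.

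**Figure D2:**
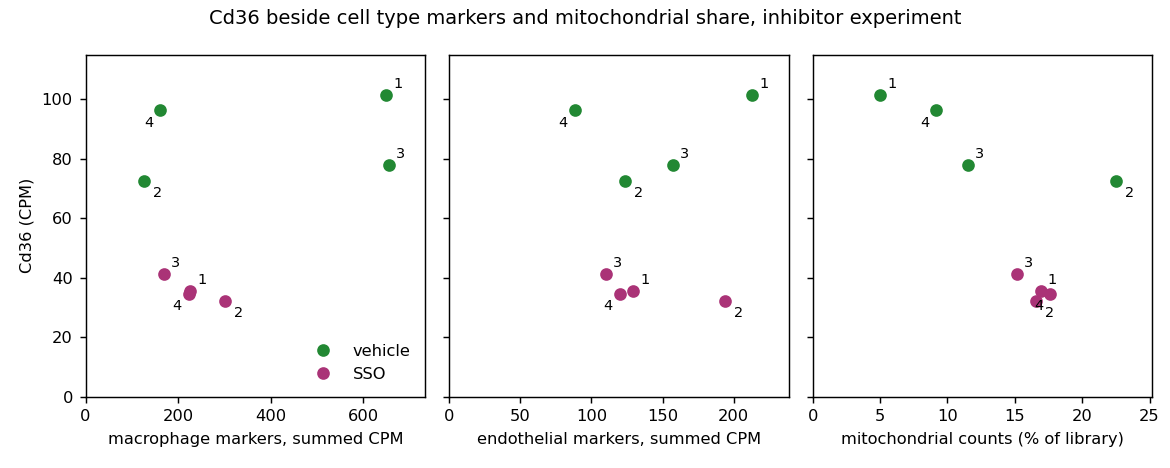
Cd36 level (CPM, vertical axis from 0) in the 8 libraries of the inhibitor experiment against summed macrophage and monocyte markers, summed endothelial markers and the mitochondrial share of counts. Each point is 1 library with its number; the vehicle and SSO points separate on the Cd36 axis, and on each horizontal axis the SSO points lie within the range of the vehicle points.

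Scarb1 encodes SR-BI, the receptor that takes up cholesteryl ester from high-density lipoprotein and a relative of CD36. It was at 140, 63.1, 96.9 and 156 CPM in vehicle libraries and at 75.2, 90.0, 83.9 and 104 CPM in SSO libraries. The groups overlapped, with vehicle 2 the lowest of all, and the log2 fold change of -0.37 ± 0.26 (95% interval -0.95 to 0.21) was not called, with an adjusted p of 0.440 by edgeR. Got2 encodes mitochondrial aspartate aminotransferase, also described as a fatty acid binding protein of the plasma membrane. It was at 406, 440.1, 338 and 618 CPM in vehicle and at 427, 378, 495 and 453 CPM in SSO libraries, with overlapping groups. Its means were 450.4 ± 120 CPM and 438.2 ± 48.9 CPM (SD, n = 4 each), and its interval, -0.54 to 0.46 on the log2 scale, spans 0. Got2 has a processed pseudogene and shares 9.0% of its exon length with a gene on the other strand, so its counts are uncertain.

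The 4 transport protein genes did not move together. Slc27a4, the family member known for fatty acid absorption in the intestine and for the skin barrier, was at 44.3, 16.1, 25.6 and 38.2 CPM in vehicle and 17.0, 18.7, 22.0 and 20.2 CPM in SSO libraries. The SSO values were close together and 1 vehicle library, vehicle 2, lay below them all. Its log2 fold change was -0.67 ± 0.27, with an unadjusted p of 0.0322 and an adjusted p of 0.206 by edgeR, and without vehicle 2 it was called lower with an adjusted p of 0.0139. In that fit 9.23% of all genes were called lower. Slc27a3, a family member with acyl-CoA synthetase activity, was at 4.49, 6.72, 7.29 and 4.18 CPM in vehicle and 9.40, 8.05, 8.06 and 8.15 CPM in SSO libraries. Every SSO value was above every vehicle value, yet the log2 fold change of 0.57 ± 0.25 had an adjusted p of 0.230 by edgeR. Slc27a2, the main very-long-chain acyl-CoA synthetase and fatty acid transporter of hepatocytes, was at 674, 809.5, 412 and 1153 CPM in vehicle and 694, 655, 743 and 689 CPM in SSO libraries. The SSO values lay inside the vehicle range. Slc27a1, the transporter best known from muscle and fat, was at 25.3, 19.5, 29.1 and 24.3 CPM in vehicle and 16.7, 29.3, 18.0 and 21.6 CPM in SSO libraries, again with overlap. Neither was called, with intervals of -0.77 to 0.51 for Slc27a2 and -0.65 to 0.25 for Slc27a1 on the log2 scale. The exons of Slc27a2 overlap a gene on the other strand over 11.2% of their length.

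Among the binding proteins, the vehicle libraries differed from each other more than the groups did. Fabp1, the abundant fatty acid binding protein of hepatocytes, was at 877, 3804, 980 and 1746 CPM in vehicle and at 2433, 1690, 2510 and 2075 CPM in SSO libraries. Vehicle 2 was the highest of the 8 and vehicle 1 and 3 the lowest, and the log2 fold change of 0.23 had an interval of -0.74 to 1.20. Fabp2, the intestinal form, was at 26.1, 110, 26.9 and 54.7 CPM in vehicle and 32.2, 27.0, 46.2 and 37.3 CPM in SSO libraries. Vehicle 2 was again the highest, and Fabp2 was not called. The 8 intestinal epithelium markers summed to 12.4, 46.8, 16.0 and 31.6 CPM in vehicle and 27.8, 45.8, 28.0 and 43.3 CPM in SSO libraries, most of it Lgals4 (8.39 to 45.8 CPM in vehicle), with Cdx1, Sis and Fabp6 at 0. In the vehicle libraries this sum, like Fabp2, was highest in vehicle 2 and next in vehicle 4. In the SSO libraries the orders differed: SSO 2 had the highest sum and the lowest Fabp2, and SSO 3 the highest Fabp2 with a sum of 28.0 CPM. The part of intestinal cells in the Fabp2 level was not tested.

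Fabp4, the form of adipocytes, endothelial cells and macrophages, was at 16.7, 14.3, 21.2 and 8.47 CPM in vehicle and 9.21, 8.34, 8.74 and 8.23 CPM in SSO libraries. Vehicle 1, 2 and 3 were above all SSO libraries and vehicle 4 lay among the SSO values. The log2 fold change was -0.81 ± 0.26, with an unadjusted p of 0.00949 and an adjusted p of 0.137 by edgeR; without vehicle 4 the adjusted p was 0.0377, and 1.43% of all genes were then called lower. Vehicle 1 and 3, which had the most macrophage and monocyte marker counts, also had the most Fabp4. Vehicle 2 had the lowest marker sum of all libraries, 125.6 CPM, and Fabp4 above all SSO libraries. The part of those cells in the difference was not tested.

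The high-fat diet gave no call among the 10 genes. In that comparison 361 of 15589 genes were called, 2.32%, of which 249 were higher and 112 lower, against 0 of 10 here. Unadjusted p was under 0.05 for 3 of the 10 (Scarb1 and Fabp1 higher, Fabp4 lower), where the share over all genes was 15.0%. The groups did not overlap for 3 of the 10, Scarb1 higher and Fabp4 and Got2 lower, and 21.9% of all genes showed such separation. DESeq2 called 3 of the 10, Scarb1 and Fabp1 higher and Fabp4 lower, with adjusted p of 0.0124, 0.0394 and 0.0356. Over all genes DESeq2 called 865, which is 5.36% of those it gave an adjusted p.

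Cd36 varied more between animals of a diet than between diets. It was at 22.3, 74.2 and 73.1 CPM in chow libraries and at 97.9, 110 and 33.5 CPM in HFD libraries. In each group 1 library, chow 1 and HFD 3, was at less than the rest, and HFD 3 lay below chow 2 and 3. The means were 56.5 ± 29.7 and 80.4 ± 41.1 CPM (SD, n = 3 each). The log2 fold change of 0.51 ± 0.61 had an interval of -0.98 to 2.00 and an adjusted p of 0.762 by edgeR. That interval holds 0 and also a rise as large as the fall seen after SSO.

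Scarb1 came nearest to a call. It was at 145, 185 and 187 CPM in chow and 279.9, 287 and 233 CPM in HFD libraries, with every HFD library above every chow library. The means were 172 ± 23.6 and 267 ± 29.8 CPM (SD, n = 3 each), and the log2 fold change of 0.63 ± 0.16 had an unadjusted p of 0.00368 and an adjusted p of 0.0935 by edgeR. With library size scaling in place of TMM edgeR's adjusted p for Scarb1 was 0.0339, and with no low-count filter 0.0264, settings that called 2.54% and 2.56% of all genes. By limma-voom the adjusted p was 0.0864, not called. In the 6 fits that left out a library edgeR's adjusted p for Scarb1 ran from 0.0893 to 0.352, and none called it.

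Fabp1 was at 959, 820.2 and 458 CPM in chow and 1617, 812 and 1891 CPM in HFD libraries. HFD 2 lay below chow 1 and 2 and the other HFD libraries above all chow libraries. The log2 fold change of 0.95 ± 0.37 (95% interval 0.11 to 1.79) was not called by edgeR, with an adjusted p of 0.274. Fabp4 was at 5.75, 8.06 and 14.1 CPM in chow and 4.30, 1.96 and 5.49 CPM in HFD libraries, with all HFD values below all chow values. Its log2 fold change of -1.24 ± 0.44 had an adjusted p of 0.233 by edgeR. The 6 adipocyte markers summed to 5.65 to 16.5 CPM under chow and 3.42 to 17.5 CPM under HFD, nearly all of it Plin4; Adipoq, Plin1, Lep and Retn were at 0 in all 6 libraries and Cfd was at 0.246 CPM or less. The summed endothelial markers spanned 107 to 175 CPM under chow and 96.1 to 124 CPM under HFD. Among them Vwf (13.2 to 24.5 and 8.21 to 11.3 CPM) and Rspo3 (5.78 to 8.64 and 4.14 to 4.71 CPM) were apart. The others overlapped. Macrophage and monocyte markers summed to 96.8 to 186.3 CPM under chow and 142.8 to 244.3 CPM under HFD. The part of these cells in the Fabp4 difference was not tested.

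Got2 was at 502, 641 and 624 CPM in chow and 461, 492 and 484 CPM in HFD libraries. All HFD values were lower, by little: the log2 fold change was -0.30 ± 0.16, with an adjusted p of 0.436 by edgeR. The remaining 5 genes had overlapping groups and intervals that span 0. Slc27a2 was at 836, 1347 and 1098 CPM in chow and 1073, 1035 and 1634 CPM in HFD libraries, a log2 fold change of 0.19 ± 0.25. Slc27a4 was at 29.0, 45.9 and 50.7 CPM in chow and 42.4, 38.1 and 38.8 CPM in HFD libraries (-0.07 ± 0.20 on the log2 scale). In both, 1 chow library, chow 1, was below all HFD libraries.

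Slc27a1 was at 5.62, 13.5 and 9.07 CPM under chow and 9.93, 7.07 and 13.0 CPM under HFD, a log2 fold change of 0.09 ± 0.34. Slc27a3 was at 4.11, 2.22 and 4.61 CPM under chow and 3.39, 3.32 and 3.37 CPM under HFD, a log2 fold change of -0.12 ± 0.30. These are low levels, and for Slc27a3 the chow libraries lay on both sides of the HFD libraries. Fabp2 was at 23.8, 76.8 and 79.9 CPM under chow and 76.7, 60.9 and 92.9 CPM under HFD, a log2 fold change of 0.35 ± 0.44. Among chow libraries, chow 1 had the lowest value of every gene here but Fabp1 and Slc27a3.

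**Figure D3:**
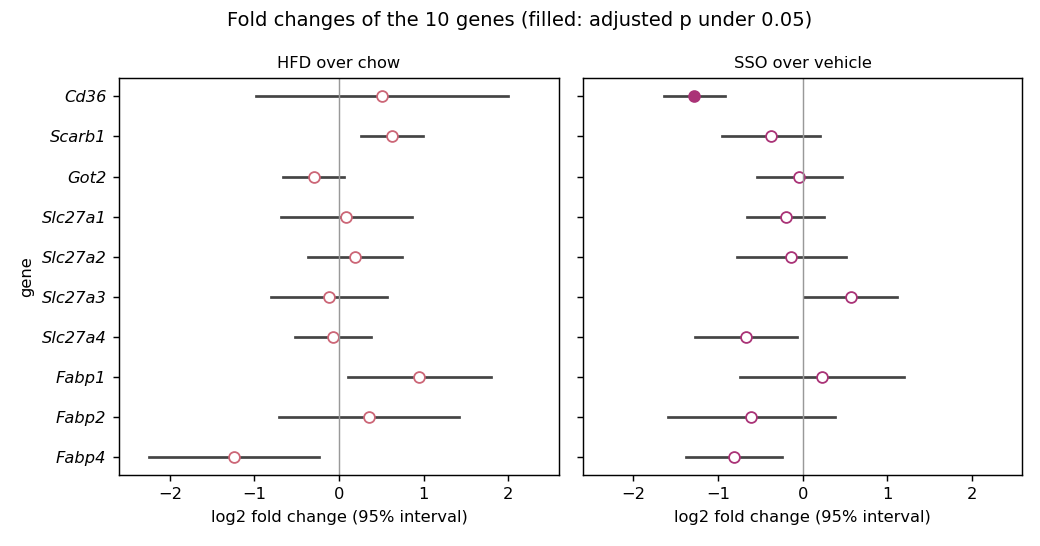
Log2 fold changes of the 10 genes for HFD over chow (left) and SSO over vehicle (right), with 95% intervals from the edgeR fit as lines. The filled point is a gene with an adjusted p under 0.05: Cd36 after SSO, at -1.28, is the only one, and no interval on the left belongs to a called gene.

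To compare genes with each other, CPM was divided by the length in kilobases of the longest principal transcript. On this scale Fabp1 was the highest of the 10 in all 4 groups, with group means of 1349 CPM per kilobase in chow, 2604 in HFD, 3348 in vehicle and 3936 in SSO. Slc27a2 and Got2 followed, at 375 and 233 CPM per kilobase in chow, their ranges apart from their neighbours there. Scarb1 and Fabp2, at 68.4 and 62.3, overlapped each other. Cd36, at 16.6, overlapped Fabp4 (10.4), which overlapped Slc27a4 (10.3), and Slc27a1 (3.37) and Slc27a3 (1.61) overlapped at the bottom.

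In HFD the order of the first 6 was the same, with Cd36 at 23.7 CPM per kilobase, and Slc27a4 (9.81) stood above Fabp4 (4.38). In vehicle libraries neighbouring ranges overlapped from Slc27a2 to Got2 and from Fabp2 through Scarb1, Cd36, Fabp4 and Slc27a1 to Slc27a4. Cd36 was at 25.6 CPM per kilobase there and at 10.5 in SSO, where it lay apart from Scarb1 above it (35.0) and overlapped Fabp4 below it (9.63). With the union of all annotated exons as length, chosen after the data were seen, 16 of the 40 ranks moved. Fabp1 stayed first in each group, and Fabp4 in place of Slc27a3 became the lowest in HFD and in SSO. In vehicle libraries Cd36 (24.2) then stood above Scarb1 (13.4), their ranges apart.

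**Figure D4:**
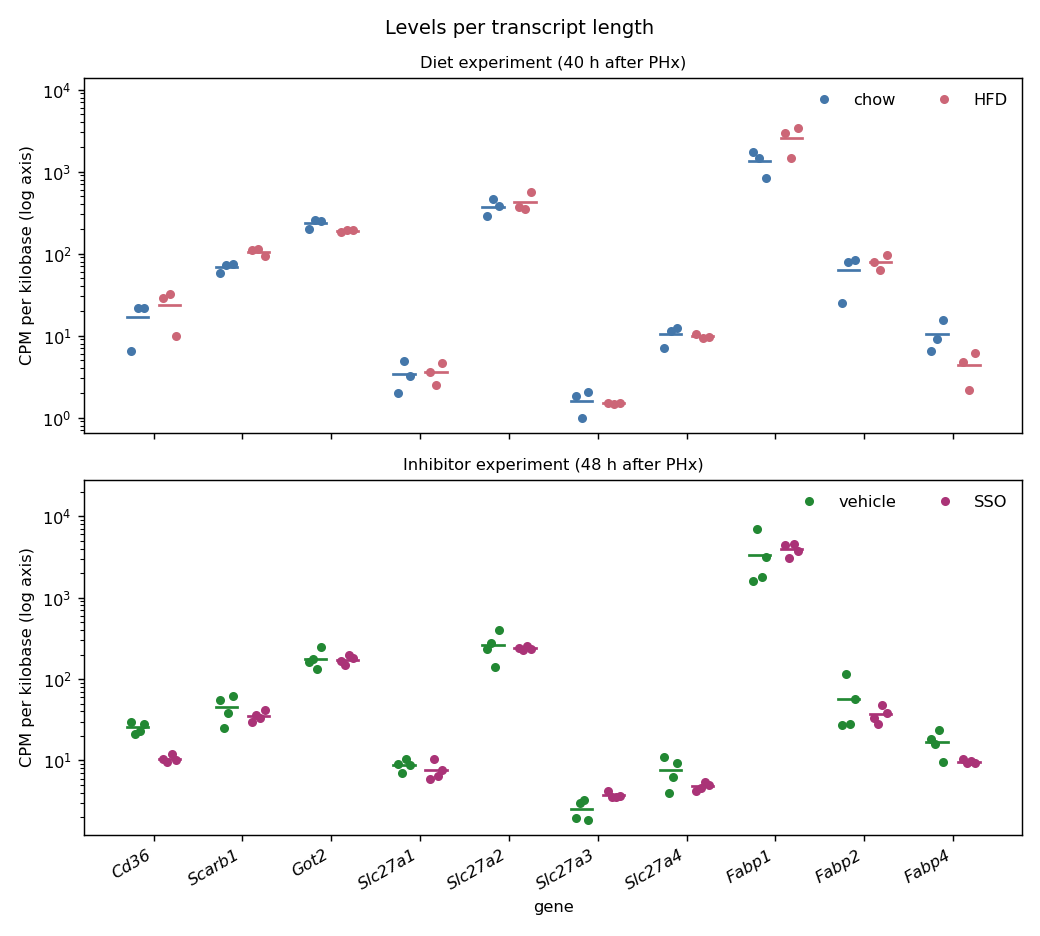
Levels of the 10 genes as CPM per kilobase of the longest principal transcript, log axis, diet experiment (top) and inhibitor experiment (bottom). Points are libraries and bars group means; Fabp1 stands highest in all 4 groups and Slc27a3 lowest, with Cd36 in the middle.

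A further 4 gene lists give the setting of these genes. Of 28 other genes of fatty acid uptake, activation and binding, 22 were tested in the diet comparison. EdgeR called 2 of these higher and 1 lower, and 2.32% of all genes. The median log2 fold change of the 22 was -0.11, and that of all genes -0.02. Cav2, a caveolin of the membrane pits in which CD36 resides, was at 4.60, 4.94 and 4.40 CPM in chow and 12.2, 12.2 and 12.1 CPM in HFD libraries. It rose with an adjusted p of 0.00460 by edgeR and was called in all 6 fits that left out a library. Lpl, the lipase that frees fatty acids from circulating triglyceride, rose from 34.6 ± 7.60 to 66.0 ± 10.8 CPM, with an adjusted p of 0.0392 by edgeR. Lpl was called in 1 of the 6 fits that left out a library. In the SSO comparison none of the 22 was called by edgeR, 7 had an unadjusted p under 0.05 (5 higher, 2 lower), limma-voom called 0 and DESeq2 called 2 higher and 1 lower. Over all genes under SSO, 20.4% had such a p, while DESeq2 called 6.35%, and 3.97% lower. Fabp5, a binding protein of skin and macrophages, was at 11.6 to 48.4 CPM in vehicle and 62.9 to 111 CPM in SSO libraries, apart, with an adjusted p of 0.112 by edgeR. Acsl3, an acyl-CoA synthetase of lipid droplets, was at 26.4 to 46.5 and 44.5 to 68.8 CPM, overlapping, with the same adjusted p.

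Among 16 transcription factors and cofactors linked to Cd36 and the binding proteins, 3 were called lower and 0 higher under HFD by edgeR, where 0.718% of all genes were called lower. Of the 16, 12 had a log2 fold change below 0, with a median of -0.27 against -0.02 over all genes. Ahr, the aryl hydrocarbon receptor, fell from 72.7 ± 8.16 to 42.3 ± 4.17 CPM, with an adjusted p of 0.0231 by edgeR. Nr1h4, the bile acid receptor FXR, fell from 125 ± 7.42 to 77.9 ± 9.05 CPM (adjusted p 0.0378), and Nr1i2, the xenobiotic receptor PXR, fell from 76.8 ± 7.27 to 46.9 ± 6.19 CPM (adjusted p 0.0388). Ahr and Nr1h4 were each called in 2 and Nr1i2 in 1 of the 6 fits that left out a library. None of the 16 was called under SSO by edgeR, limma-voom or DESeq2. An unadjusted p fell under 0.05 for 3 of them, all higher, against 20.4% of all genes. The smallest were those of Cebpb (57.5 to 78.9 CPM in vehicle, 86.8 to 137 CPM in SSO libraries) and Ppard, the PPAR subtype found in most tissues (21.2 to 37.2 and 36.7 to 66.8 CPM), with adjusted p of 0.135 and 0.155 by edgeR. Cebpb shares 20.7% of its exon length with Tmem189 on the other strand, so its counts are uncertain.

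Of a list of 18 PPARA target genes of fatty acid use, edgeR called none in either comparison. Of the 18 such genes of fatty acid use, 16 had a log2 fold change below 0 under SSO, with a median of -0.27 against -0.04 over all genes; 4 had an unadjusted p under 0.05, all lower, and DESeq2 called 3 lower; over all genes 20.4% had such a p and DESeq2 called 3.97% lower. Plin2, which coats lipid droplets, was at 584, 321, 481 and 327 CPM in vehicle and 207, 181, 226 and 193 CPM in SSO libraries. The groups did not overlap, and edgeR's adjusted p was 0.0866. Vnn1, a pantetheinase, was at 34.1 to 71.3 CPM in vehicle and 21.3 to 26.7 CPM in SSO libraries, with an adjusted p of 0.106 by edgeR. In the diet comparison 2 of the 18 had an unadjusted p under 0.05, both higher, and DESeq2 called 1 higher. Over all genes 15.0% had such a p there, and DESeq2 called 5.36%. Plin2 was at 293, 362 and 256 CPM in chow and 597, 349 and 1047 CPM in HFD libraries. The adjusted p of Plin2 was 0.202 by edgeR. Vnn1 was at 9.04 to 34.2 CPM under chow and 32.8 to 96.1 CPM under HFD, overlapping, with an adjusted p of 0.330.

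Of 20 genes for CD36 partners, palmitoylation and scavenger receptors, 19 were tested, and edgeR called none in either comparison. Under SSO 16 of the 19 had a log2 fold change below 0, with a median of -0.55 against -0.04 over all genes; 8 had an unadjusted p under 0.05 (1 higher, 7 lower), limma-voom called 0 and DESeq2 called 3 lower, where 20.4% of all genes had such a p and DESeq2 called 3.97% lower. Tlr2 and Tlr6, Toll-like receptors that pair with CD36 on macrophages, were at 0.726 to 10.3 and 0.726 to 3.46 CPM in vehicle libraries and at 0.334 to 1.02 and 0.619 to 0.930 CPM in SSO libraries. Tlr2 was highest in vehicle 1 and 3, at 10.3 and 6.67 CPM, the libraries with the most macrophage and monocyte markers. In the diet comparison 2 of the 19 had an unadjusted p under 0.05, 1 in each direction, against 15.0% of all genes. DESeq2 and limma-voom called 0 of the 19. The 2 genes were Scarf1, a scavenger receptor of endothelial cells (15.1 to 17.0 CPM under chow, 17.6 to 22.3 CPM under HFD), and Lypla1, an enzyme that removes palmitate from proteins (123 to 178 and 98.7 to 128 CPM).

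The genes whose pattern was most like that of Cd36 were ranked by Pearson correlation of log2 CPM over the 14 libraries, among 8049 genes whose mean log2 CPM reached 3 in both tables, after centring each table on its own mean. The 5 highest were Golga5 (r = 0.857), Unc50 (0.848), Cenpb (0.842), Tmem185a (0.840) and Jup (0.840). None of them was called in either comparison. Of these genes Jup, the junction protein plakoglobin, had the lowest log2 fold change under SSO, -0.61, with levels of 51.0 to 77.8 CPM in vehicle and 41.6 to 45.3 CPM in SSO libraries. Slc27a3 and Fabp4 fell short of that level and were not ranked, but their r was taken the same way. Among the other 9 uptake and binding genes, Slc27a4 (0.655) and Scarb1 (0.586) were nearest to Cd36, and Slc27a3 (-0.598) and Fabp1 (-0.344) were farthest. These correlations share the libraries and the scaling and are given as descriptions.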

How the data were processed

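The deposited tables hold raw read counts, as whole numbers, for each Ensembl gene. HISAT2 2.2.1, featureCounts 2.0.2, Trim Galore 0.6.1, DESeq2 and GRCm38 (mm10) are named, without settings, in the submitters' processing notes. Poly-A RNA was selected, per the labels' protocols. For the annotation release, strand setting and multiply mapped reads, the choice is not given in the sources used here. Symbols and coordinates (1-based, GRCm38) are from GENCODE M21, which matched 55227 of 55487 identifiers.

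Columns were assigned to groups by name, and control columns, headed C, were taken as the control of their own table. For the inhibitor experiment nothing says that the 4 columns of a group are separate animals, so its p-values measure the spread between these libraries. Counts of every pair of libraries in a group differed by more than sampling noise.

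Each table was fitted in edgeR 4.0.16 (R 4.3.3) with TMM scaling, filterByExpr and the robust quasi-likelihood test. Genes were called at a Benjamini-Hochberg adjusted p under 0.05 over all genes tested. Alternatives were DESeq2 1.42.0, limma-voom (limma 3.58.1), library size scaling, no low-count filter, each library left out, and vehicle 1 and 3 left out. All 10 genes were described. From each further list and comparison, up to 3 called genes per direction with the smallest p were named or, with none called, the 2 with the smallest p. The 5 genes most like Cd36 by correlation were also named. Genes and lists were chosen with earlier results of these data known. The table of sorted macrophages was not used here, and 1 called gene of a further list is not reported here.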

Additional observations from a re-analysis of the deposited data

Results flagged for a closer look

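For the 10 genes, 20 groups of 4 libraries were searched for a library far from the others, which chance alone gives in about 1 of 20 groups. It picked out Slc27a3 in the SSO group, where SSO 1 was at 9.40 CPM and the other libraries lay between 8.05 and 8.15 CPM. The gap from SSO 1 to the next library was 0.920 of the whole range of the group, above Dixon's 95% critical value for 4 samples. All 4 values lie above those of the vehicle group.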

How the results depend on the processing

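Both comparisons are limited by the number of libraries and their spread; the fewest counts behind a value of the 10 genes were 65, for Fabp4 in HFD 2. In the diet comparison the number of genes called over all tested was 361, against 865 with DESeq2, 672 with no low-count filter, and 86 to 681 with a library left out. The number of the 10 genes called there was 0, against 3 with DESeq2, 1 with library size scaling (Scarb1) and 1 with no filter (Scarb1). It stayed at 0 with limma-voom and in all 6 fits that left out a library. In the SSO comparison 71 genes were called, against 1137 with DESeq2, 37 with library size scaling, 205 with no filter, and 0 to 2646 with a library left out: 2646 without vehicle 2, 364 without vehicle 4, 16 without vehicle 3, and 0 without vehicle 1 or any SSO library. Of the 10 genes 1 was called, against 0 to 2 with a library left out. The second was Slc27a4 without vehicle 2 and Fabp4 without vehicle 4. The causes of these shifts were not tested. Library size scaling in place of TMM moved the median log2 fold change over all genes by 0.15 in the diet comparison and by -0.16 in the SSO comparison.

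The Cd36 log2 fold change after SSO was below 0 in all 13 alternatives. Signs turned in 12 of the log2 fold changes refitted for the 10 genes, none of them called. Under HFD, log2 fold changes with a library left out ran from -0.18 to 0.45 for Slc27a1 (lowest without chow 1, and -0.15 without HFD 3), from -0.053 to 0.37 for Slc27a2, from -0.37 to 0.083 for Slc27a3, from -0.27 to 0.086 for Slc27a4 and from -0.024 to 0.61 for Fabp2. With library size scaling Slc27a3 was 0.043 and Slc27a4 0.095. Under SSO they ran from -0.33 to 0.15 for Slc27a2 and from -0.15 to 0.16 for Got2 (highest without vehicle 4, and 0.026 without SSO 2), and Fabp1 was -0.34 with vehicle 1 and 3 left out. No paired analysis was possible because the columns of the groups carry library numbers that the labels do not tie to shared animals or batches.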
